A study of Mus musculus with 16 samples.

Results

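ATP-binding cassette (ABC) transporters were followed across 6 mouse cell populations measured on expression arrays. The family was taken as every gene whose symbol in the array's probe annotation reads Abc, a letter from a to g, a number and at most one further letter, with case ignored because the annotation writes symbols in capitals. This gave 46 genes on 52 probes, of 17710 named genes and 26423 probes in all: 15 of subfamily A, 9 of B, 9 of C, 3 of D, 1 of E, 3 of F and 6 of G. Of the 46 genes, 41 had 1 probe and 5 had more than 1, in which case the brightest probe on average stood for the gene.

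All 16 arrays held RNA of C57BL/6 mice whose genotype is given as normal. The populations were heart side population cells, chosen by efflux of a Hoechst dye (2 arrays), heart cells sorted for the receptor c-kit (3 arrays), heart cells sorted as Sca1-positive, CD45-negative and CD31-negative (3 arrays), bone marrow cells sorted for c-kit (3 arrays), bone marrow mesenchymal stem cells (MSC) kept for 5 passages (3 arrays), and cardiomyocytes collected by slow centrifugation (2 arrays). Every sample carries the same culture note, Matrigel-coated dishes with mTeSR medium, and it is worded alike for the sorted groups and the passaged MSC; nothing further on the culture of single groups is given. Neither age nor sex is given, and nothing says whether replicates came from separate mice or cultures. The p-values therefore rest on array-to-array spread alone, possibly of technical origin, and the number of arrays limits the precision.

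ABC transporters couple ATP binding and hydrolysis at paired cytosolic domains to the movement of a substrate through the membrane. Subfamilies A and G hold many sterol and phospholipid exporters, B and C the multidrug exporters together with mitochondrial and channel-regulating members, D the importers of fatty acids into peroxisomes, and E and F lack a membrane domain and act on ribosomes. Side population cells are recognised because Abcg2, and in some tissues the P-glycoproteins encoded by Abcb1a and Abcb1b, pump the Hoechst dye out of the cell.

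Levels are given as log2 Cy5 intensity after quantile normalisation, and a gene was called where its limma p-value, adjusted by Benjamini-Hochberg over all 17710 genes, was under 0.05. A difference of levels is given ± its SE, and a further number beside it in parentheses is its limma adjusted p. The arrays differed in brightness. The side population arrays had a median spot intensity of 15 and 22, against 18 on replicate 2 of heart c-kit cells and at most 200 elsewhere. A single repeated value, taken here as a fill for spots with no usable signal, stood at 13.8% and 9.93% of probes on the side population arrays, and at 3.38% of probes on the array with the fewest. Of the 46 transporters, 14 stood at that fill value on at least 1 array and 32 on none. Levels near the fill value make large differences uncertain in size. The same gene in fewer cells and less of its RNA per cell cannot be told apart in bulk RNA. Marker lists varied between arrays of different populations: the mean level of 9 fibroblast genes was 5.45 to 5.64 in side population cells, 0.83 to 2.54 in heart c-kit cells, 6.16 to 6.42 in heart Sca1 cells, -1.85 to -0.96 in marrow c-kit cells, 1.92 to 3.18 in MSC and 4.31 to 4.97 in cardiomyocytes. For 12 endothelial genes it was 0.80 to 0.89 in side population cells, 5.22 to 6.03 in heart c-kit cells, 0.75 to 5.60 in heart Sca1 cells, 0.05 to 0.35 in marrow c-kit cells, -1.43 to -0.55 in MSC and 6.66 to 7.04 in cardiomyocytes. For 8 leukocyte genes it was -0.71 to 0.33 in side population cells, 2.90 to 3.17 in heart c-kit cells, 0.03 to 2.22 in heart Sca1 cells, 4.77 to 5.35 in marrow c-kit cells, 5.91 to 6.37 in MSC and 3.14 to 3.28 in cardiomyocytes. The cardiomyocyte arrays carried the highest endothelial levels of the study, although 7 heart muscle genes averaged 5.72 to 5.95 there and at most 3.11 elsewhere, and the MSC arrays carried the highest leukocyte levels.

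Across the 6 populations 16 of the 46 transporters differed by the F test in limma, against 31.9% of all genes. The heart side population differed from the mean of the other 5 populations in 5 transporters, against 15.9% of all genes called. Of these, 3 were higher (7.26% of all genes) and 2 were lower (8.59%). Against single populations, the side population differed from heart c-kit cells in 7 transporters (11.8% of all genes), with 5 higher (5.8%) and 2 lower (5.96%). It differed from heart Sca1 cells in 1 (6.88%), which was higher (2.23%). From marrow c-kit cells it differed in 10 (21.2%), with 4 higher (9.93%) and 6 lower (11.3%). The comparison with MSC gave 8 (17.7%), with 5 higher (7.07%) and 3 lower (10.7%), and the comparison with cardiomyocytes gave 2 (5.2%), both lower (3.29%). These comparisons share the 2 side population arrays, so their calls are not independent of one another. The median difference of the 46 transporters between the side population and the mean of the others was 0.28, beside 0.06 over all genes, and 26 of the 46 were positive. Aligning the array medians in place of quantile normalisation moved the median over all genes to 1.16 and that of the transporters to 1.60.

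Each other population was also set against the mean of the remaining 5. Heart c-kit cells differed in 7 transporters (8.9% of all genes), with 2 higher (3.03%) and 5 lower (5.87%). Heart Sca1 cells differed in 5, all higher and all of subfamily A (8.03% of all genes called, 5.61% as higher). Marrow c-kit cells differed in 13 (17.6%), with 7 higher (8.33%) and 6 lower (9.31%), and MSC in 8 (13.3%), with 3 higher (7.97%) and 5 lower (5.32%). Cardiomyocytes differed in 3 (2.75%), with 2 higher (2.14%) and 1 lower (0.61%). In all, 20 transporters (43.5%) were called in at least 1 comparison, against 42.1% of all genes, and 26 in none. The side population had the highest group mean for 8 transporters and the lowest for 8. Taken as arrays that do not overlap any array of the other 5 groups, the side population was highest in Abcg8 (5.27% of all genes) and lowest in Abcg1 (4.34%). Heart c-kit cells were highest in Abcc1 (1.18%) and lowest in Abcb10 (1.04%), and heart Sca1 cells were highest in Abca1, Abca6, Abca8a and Abca9 (2.13%). Marrow c-kit cells were highest in Abca13 and Abcb10 (4.41%) and lowest in Abca1 (3.48%), MSC highest in Abcc3 and Abcg1 (4.54%), and cardiomyocytes highest in Abcb1a (2.09%) and lowest in Abcf1 (1.14%).

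**Figure D1:**
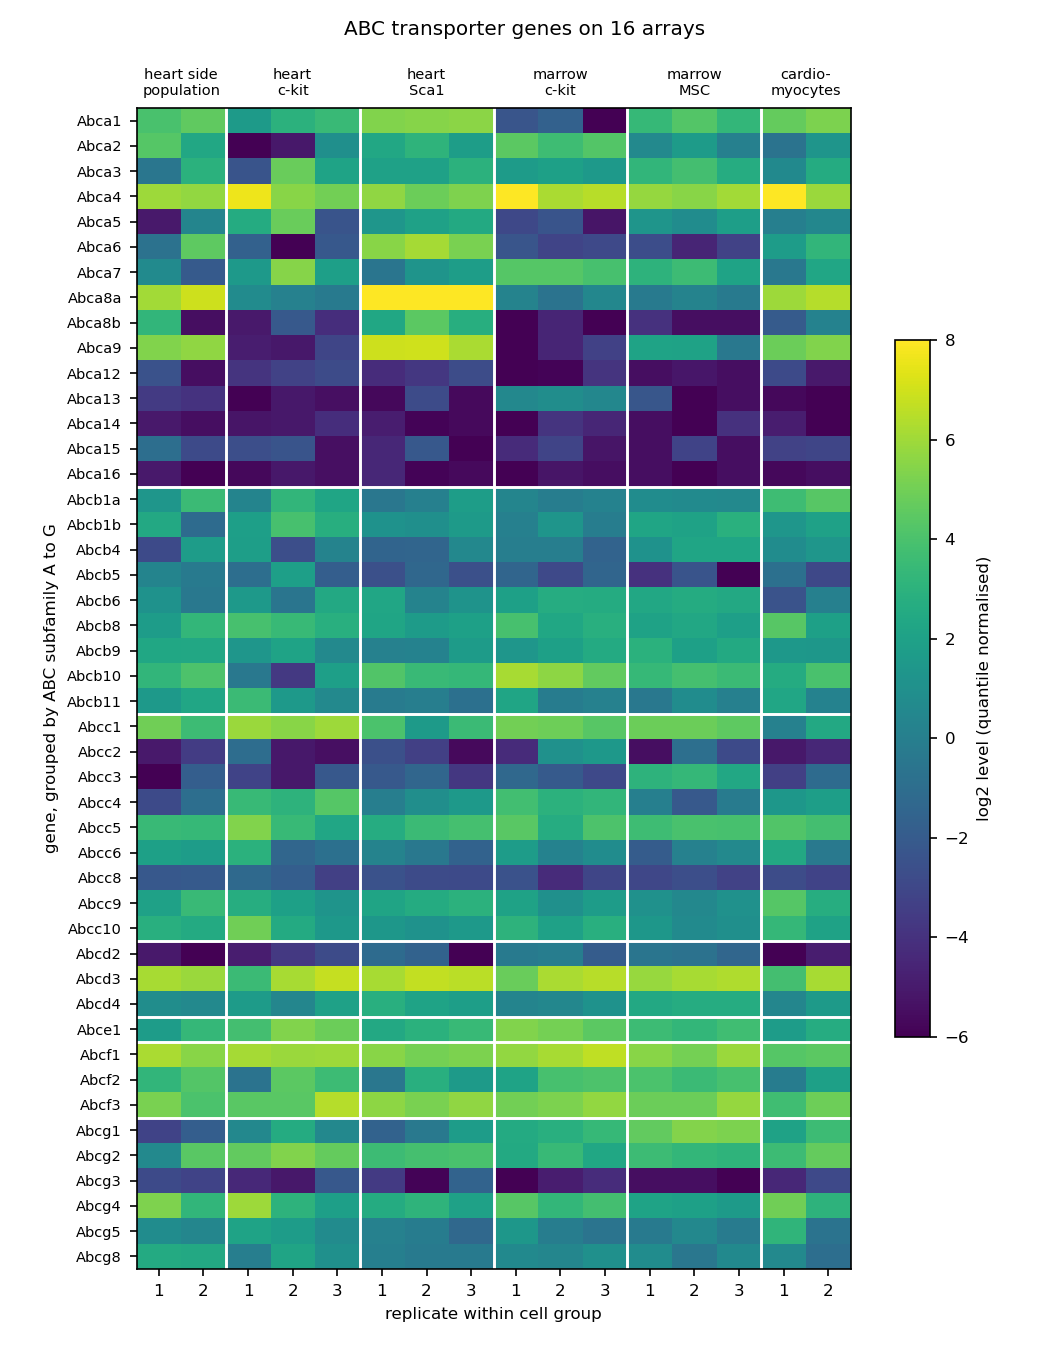
Log2 level (quantile normalised, colour) of the 46 ABC transporter genes in rows, by subfamily from A at the top to G at the bottom, on the 16 arrays in columns; the end colours also hold values beyond the colour bar. Abca8a and Abca9 are bright on both side population arrays (6.04 and 6.95, and 5.35 and 5.68) and on all 3 heart Sca1 arrays, and Abcg1 and Abcc4 are dark on both side population arrays.

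None of the 4 exporters linked to dye and drug efflux was called in the side population, and for Abcg2 and Abcb1b its 2 arrays lay far apart. Abcg2 encodes the half-transporter that is the main Hoechst exporter of side population cells. Its log2 level stood at 0.59 and 4.41 in the side population, 4.63, 5.33 and 4.72 in heart c-kit cells, 3.61, 3.85 and 3.99 in heart Sca1 cells, 2.52, 3.42 and 2.35 in marrow c-kit cells, 3.62, 3.29 and 3.08 in marrow MSC and 3.62 and 4.69 in cardiomyocytes. The side population arrays were split: replicate 1 lay below all other arrays and replicate 2 lay within the range of the others. As recovered intensities the same spots read 23 and 1323, which places Abcg2 at percentile 50.1 and 82.9 of all genes on those arrays. The side population minus the mean of the other groups was -1.29 ± 0.72 (SE) with a limma adjusted p of 0.248, and was not called. Without side population replicate 1 the difference turned to 0.62 (limma adjusted p = 0.582), and without replicate 2 it was -3.20 and was called (limma adjusted p = 0.00554). Which of the arrays better represents the population cannot be told from 2 arrays.

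Abcb1a encodes a P-glycoprotein, a broad exporter of hydrophobic drugs that is abundant in capillary endothelium of brain and other organs. It read 1.36 and 3.57 in the side population, 0.33, 3.20 and 2.22 in heart c-kit cells, -0.45, 0.07 and 1.79 in heart Sca1 cells, 0.37, -0.05 and 0.22 in marrow c-kit cells, 0.79, 0.68 and 0.58 in marrow MSC and 3.63 and 4.38 in cardiomyocytes. Both cardiomyocyte arrays lay above every other array, and both side population arrays lay above all marrow arrays and overlapped the other heart groups. Abcb1a differed across the groups (limma F test, adjusted p = 0.0262), but neither the side population (1.01 ± 0.74, limma adjusted p = 0.394) nor cardiomyocytes (2.86 ± 0.74, limma adjusted p = 0.059) passed against the mean of the others. The F call was lost without either cardiomyocyte array (adjusted p = 0.0641 and 0.0988) and without marrow c-kit replicate 2 or 3 (0.055 and 0.0505). It was lost as well with array medians aligned (adjusted p = 0.0975) and the deposited values (adjusted p = 0.186). The difference of the side population from the mean of the others, not called, turned to -0.093 without side population replicate 2 (adjusted p = 0.967). The endothelial list was also highest in cardiomyocytes, and its part in the Abcb1a level was not tested.

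Abcb1b, the second mouse P-glycoprotein gene, again split the side population arrays, in the direction opposite to Abcg2. Its levels were 2.47 and -1.13 in the side population, 1.91, 3.91 and 2.80 in heart c-kit cells, 1.12, 0.97 and 1.63 in heart Sca1 cells, 0.10, 1.28 and -0.04 in marrow c-kit cells, 2.25, 2.04 and 2.90 in marrow MSC and 1.38 and 1.99 in cardiomyocytes. The lowest of the 16 values was that of side population replicate 2, while replicate 1 lay among the upper values. The difference from the mean of the others was -1.06 ± 0.76 (limma adjusted p = 0.381), turned to 0.74 without side population replicate 2 (limma adjusted p = 0.575), and was -2.85 and called without replicate 1 (limma adjusted p = 0.029). Abcb1a and Abcb1b are close paralogs, so cross-hybridisation between their probes was not tested.

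Abcc1, which encodes the multidrug resistance protein that exports glutathione conjugates, had its highest levels in heart c-kit cells and its lowest in cardiomyocytes. It read 4.97 and 3.59 in the side population, 5.90, 5.53 and 5.93 in heart c-kit cells, 4.01, 1.63 and 3.53 in heart Sca1 cells, 5.00, 4.91 and 4.35 in marrow c-kit cells, 4.86, 4.87 and 4.53 in marrow MSC and 0.14 and 2.45 in cardiomyocytes. All 3 heart c-kit arrays lay above all other arrays. Heart c-kit cells exceeded the mean of the others by 2.16 ± 0.57 (limma adjusted p = 0.0291), and cardiomyocytes minus the others came to -3.23 ± 0.67 (limma adjusted p = 0.0205). The side population, at 0.35 ± 0.67, was not called (limma adjusted p = 0.776), and its sign turned to -0.34 without replicate 1. Leaving out any 1 heart c-kit array ended the heart c-kit call (2.09 to 2.29, limma adjusted p = 0.069 to 0.077). Likewise the cardiomyocyte call ended without cardiomyocyte replicate 1 (-2.07, adjusted p = 0.447) and without replicate 2 (-4.39, adjusted p = 0.0636). The heart c-kit call was lost as well with array medians aligned (2.42, adjusted p = 0.0918), the deposited values (2.05, adjusted p = 0.0998) and array weights (adjusted p = 0.209), and the cardiomyocyte call with array medians aligned (-3.76, adjusted p = 0.171), the deposited values (-3.28, adjusted p = 0.146) and array weights (adjusted p = 0.0663). Over the 4 exporters and the 6 comparisons of the side population limma made 0 calls. Of these 24 tests 5 had an unadjusted limma p under 0.05, against 21.2% to 33.4% of all genes in the single comparisons.

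**Figure D2:**
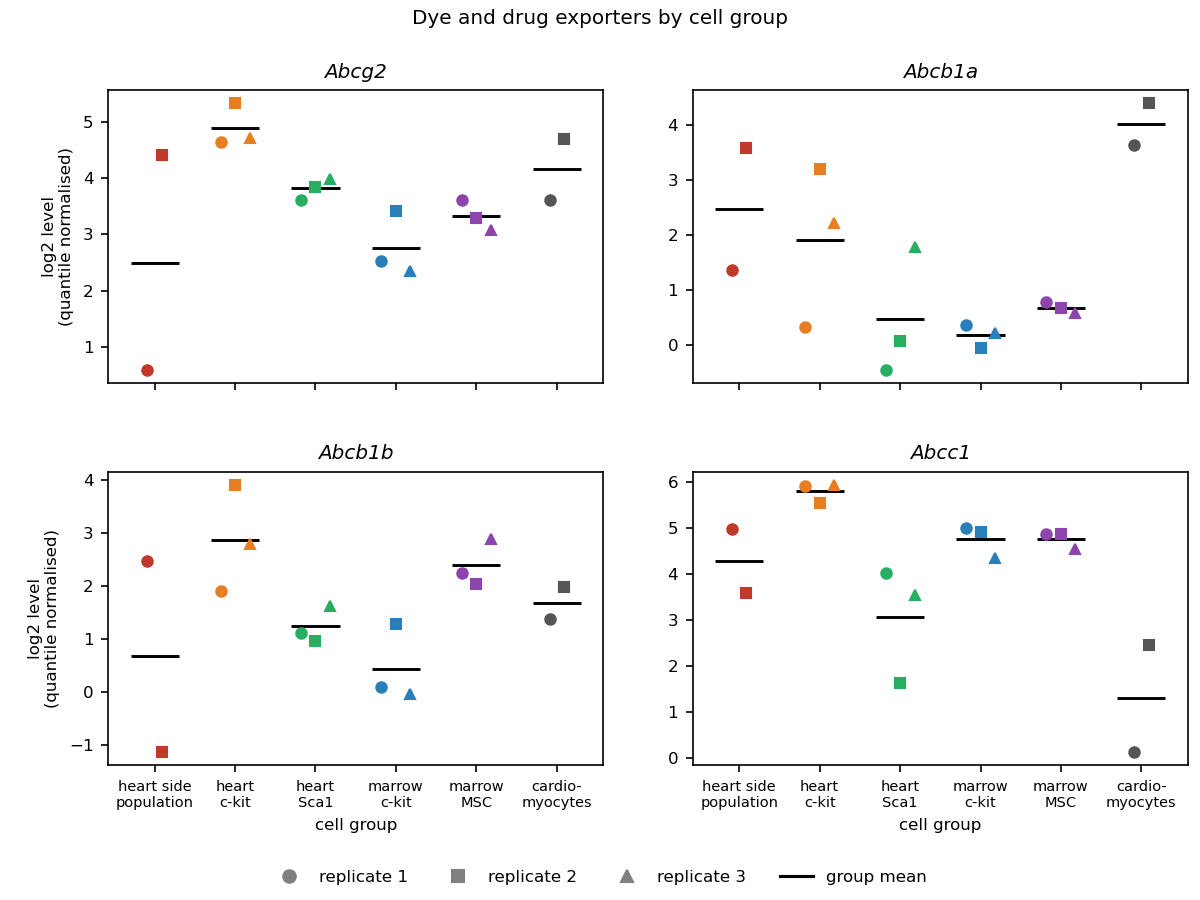
Log2 levels (quantile normalised, y axis) of Abcg2, Abcb1a, Abcb1b and Abcc1 by cell group (x axis); each point is an array, its shape the replicate number, and each bar the group mean. The side population points of Abcg2 lie at 0.59 and 4.41 and those of Abcb1b at 2.47 and -1.13, on both sides of the means of most other groups, and the 3 heart c-kit points of Abcc1 lie above all others.

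The split between the side population arrays reached beyond the dye exporters. Over the 46 transporters, 12 (26.1%) differed by more than 2 log2 units between those 2 arrays, against 33.4% of all genes. Levels of all genes correlated at 0.748 between the 2 side population arrays. Each of them correlated at 0.757 to 0.776 with the heart Sca1 arrays, which is higher. Within the other groups pairs of arrays correlated at 0.791 to 0.942. The widest gaps of replicate 1 minus replicate 2 were 8.73 in Abca8b, -5.46 in Abca5, -5.23 in Abca6, -4.59 in Abcb4, -4.50 in Abcc3 and -3.82 in Abcg2. Abcb4 encodes the phosphatidylcholine exporter of the bile canaliculus. In heart c-kit cells 30 of the 46 transporters (65.2%) spread by more than 2 log2 units over 3 arrays, against 56.8% of all genes. The other populations had 8 to 14 such transporters.

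The largest positive differences of the side population lay in subfamily A, in Abca9 and Abca8a. Abca8b, Abca8a, Abca9, Abca6 and Abca5 are consecutive genes of chromosome 11 in RefSeq and form the Abca6-like branch of subfamily A, whose members are thought to handle lipids but whose substrates are little settled. The 250 bases before the annotated start are shown for the 4 neighbours that have a promoter entry, so that the genes that were high together in side population and heart Sca1 cells (Abca8a, Abca9) can be read beside those that were not called in the side population against the others (Abca8b, Abca5). The sequences are those of RefSeq on GRCm38.p6, minus strand, 5′ to 3′, and capitals mark GC boxes.
Abca8b, chr11:109995846-109996095: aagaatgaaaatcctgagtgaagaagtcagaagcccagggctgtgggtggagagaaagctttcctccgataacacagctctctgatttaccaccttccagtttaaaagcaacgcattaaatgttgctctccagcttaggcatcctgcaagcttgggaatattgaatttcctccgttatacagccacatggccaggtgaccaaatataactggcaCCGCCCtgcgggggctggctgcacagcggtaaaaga
Abca8a, chr11:110095938-110096187: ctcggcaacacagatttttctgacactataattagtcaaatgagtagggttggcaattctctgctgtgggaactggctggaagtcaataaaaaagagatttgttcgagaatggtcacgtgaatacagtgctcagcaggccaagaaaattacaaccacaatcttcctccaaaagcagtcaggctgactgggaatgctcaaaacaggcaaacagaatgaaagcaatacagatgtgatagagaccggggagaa
Abca9, chr11:110168154-110168403: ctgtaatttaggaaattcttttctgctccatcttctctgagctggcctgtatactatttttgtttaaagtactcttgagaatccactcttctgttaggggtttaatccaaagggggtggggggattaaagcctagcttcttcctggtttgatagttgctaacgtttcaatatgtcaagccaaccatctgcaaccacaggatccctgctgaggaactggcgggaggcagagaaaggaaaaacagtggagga
Abca5, chr11:110337717-110337966: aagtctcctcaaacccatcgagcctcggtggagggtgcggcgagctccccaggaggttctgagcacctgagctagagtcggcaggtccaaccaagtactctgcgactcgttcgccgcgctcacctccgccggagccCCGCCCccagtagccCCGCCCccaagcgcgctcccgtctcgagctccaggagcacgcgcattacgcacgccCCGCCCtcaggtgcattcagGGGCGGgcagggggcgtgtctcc
The motifs searched on both strands were the GC box GGGCGG, the CCAAT box CCAAT, the TATA box TATAAA and the AP-1 site TGANTCA, and no matches overlapped. They occur in 32.7%, 33.8%, 12.4% and 6.75% of 32851 promoter windows of the same length. Abca5 held 4 GC boxes, beginning 114, 99, 43 and 23 bases before the start, and Abca8b held 1, at 36 bases. Abca8a and Abca9 held no match to any of the 4 motifs. The GC content was 48.8% for Abca8b, 43.2% for Abca8a, 44.4% for Abca9 and 69.2% for Abca5, against a median of 52.4% over all windows.

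Abca8a was high in 3 of the heart populations. Its levels were 6.04 and 6.95 in the side population, 0.77, 0.18 and -0.23 in heart c-kit cells, 7.95, 8.01 and 7.98 in heart Sca1 cells, 0.26, -0.65 and 0.49 in marrow c-kit cells, -0.21, 0.27 and -0.27 in marrow MSC and 5.92 and 6.42 in cardiomyocytes. The side population, heart Sca1 and cardiomyocyte arrays all lay above every heart c-kit, marrow c-kit and MSC array, with no overlap. The side population exceeded the mean of the others by 3.63 ± 0.47 (limma adjusted p = 0.000306), heart c-kit cells by 6.26 ± 0.57 (adjusted p = 1.72e-05), marrow c-kit cells by 6.47 ± 0.57 (4.24e-06) and MSC by 6.57 ± 0.57 (1.38e-05). Against heart Sca1 cells it stood at -1.48 ± 0.57 (limma adjusted p = 0.135), and heart Sca1 cells exceeded the mean of the others by 5.40 ± 0.40 (1.14e-05). Only the fit to the 2 groups compared ended one of these side population calls, that against heart c-kit cells (limma adjusted p = 0.0568). Cardiomyocytes exceeded the mean of the others by 3.24 ± 0.47 (limma adjusted p = 0.00503), a call lost without cardiomyocyte replicate 1 (3.48, 0.0841) or 2 (2.99, 0.0844). It was lost, too, with array medians aligned (1.32, adjusted p = 0.338) and the deposited values (1.80, adjusted p = 0.266).

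Abca9 had the largest positive difference of the 46 transporters in the side population. It read 5.35 and 5.68 in side population cells, -4.88, -5.10 and -3.05 in heart c-kit cells, 6.96, 6.99 and 6.22 in heart Sca1 cells, -6.08, -4.57 and -3.29 in marrow c-kit cells, 2.11, 2.05 and -0.41 in marrow MSC and 4.85 and 5.34 in cardiomyocytes, with heart c-kit replicate 2 and marrow c-kit replicate 1 at the fill value. The order resembled that of Abca8a except that MSC lay between the high and the low groups. The side population exceeded the mean of the others by 4.70 ± 0.78 (limma adjusted p = 0.00154), heart c-kit cells by 9.85 ± 0.94 (2.09e-05), marrow c-kit cells by 10.16 ± 0.94 (5.4e-06) and MSC by 4.26 ± 0.94 (0.00701). Weighting the arrays of each group by their spread ended the call against the mean of the others (limma adjusted p = 0.091) and that against MSC (0.0809). Heart Sca1 cells exceeded the mean of the others by 6.15 ± 0.66 (limma adjusted p = 0.00016), and cardiomyocytes by 4.19 ± 0.78 (0.014). The cardiomyocyte call was lost without replicate 1 (4.44, 0.168) or 2 (3.95, 0.136) of that group, and with array medians aligned (2.32, adjusted p = 0.234), the deposited values (2.79, adjusted p = 0.186) and array weights (adjusted p = 0.0752). Heart c-kit cells minus the others came to -7.13 ± 0.66 (3.34e-05) and marrow c-kit cells minus the others to -7.49 ± 0.66 (2.21e-06).

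Abca6 and Abca8b were high in all heart Sca1 arrays but in only 1 of the 2 side population arrays each. Abca6 read -0.71 and 4.52 in the side population, -1.64, -6.30 and -2.14 in heart c-kit cells, 5.50, 6.10 and 5.17 in heart Sca1 cells, -2.32, -3.15 and -2.89 in marrow c-kit cells, -2.69, -4.57 and -3.23 in marrow MSC and 1.72 and 3.19 in cardiomyocytes. Side population replicate 2 stood near the heart Sca1 arrays and replicate 1 just above the upper heart c-kit arrays. The side population passed against heart c-kit cells (5.26 ± 1.43, limma adjusted p = 0.0281), marrow c-kit cells (4.69 ± 1.43, 0.0311) and MSC (5.40 ± 1.43, 0.0193), but not against the mean of the others (2.22 ± 1.19, 0.227). All 3 calls were lost without side population replicate 2, at 2.65, 2.08 and 2.79 (adjusted p = 0.271, 0.361 and 0.213). Some comparison arrays also decided a call: heart c-kit replicate 2 (3.80, adjusted p = 0.0736), MSC replicate 2 (4.86, 0.0661) and each marrow c-kit array (4.51 to 4.92, 0.0562 to 0.0826). The 2 other Abca6 probes averaged -0.95 and -5.28 in the side population, and the mean over all probes ended the 3 calls (2.22 to 2.42, adjusted p = 0.172 to 0.197). The call against heart c-kit cells was also lost with the deposited values (4.71, adjusted p = 0.0566), array weights (adjusted p = 0.146) and only the groups compared (adjusted p = 0.348), that against marrow c-kit cells with the deposited values (4.43, adjusted p = 0.0506), the replicate block (4.81, adjusted p = 0.0517), array weights (adjusted p = 0.0566) and only the groups compared (adjusted p = 0.0992), and that against MSC with only the groups compared (adjusted p = 0.0921). Heart Sca1 cells exceeded the mean of the others by 6.64 ± 1.01 (limma adjusted p = 0.00122), and no array left out ended that call.

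Abca8b read 3.24 and -5.50 in the side population, -5.02, -2.08 and -4.17 in heart c-kit cells, 2.37, 4.47 and 2.77 in heart Sca1 cells, -6.08, -4.57 and -6.08 in marrow c-kit cells, -4.02, -5.50 and -5.50 in marrow MSC and -1.99 and 0.19 in cardiomyocytes. Side population replicate 2 stood at the fill value, so the group spans nearly the whole range of the gene. The side population was not called in any comparison, with 1.28 ± 1.50 against the mean of the others (limma adjusted p = 0.614). Heart Sca1 cells exceeded the mean of the others by 6.48 ± 1.27 (limma adjusted p = 0.00656), a call that was lost without heart Sca1 replicate 2 (5.84, 0.0594). Marrow c-kit replicates 1 and 3 and MSC replicate 3 were also at the fill value.

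Abca5 encodes a transporter of lysosomes and late endosomes, and it was not called in side population or heart Sca1 cells. Its levels were -5.06 and 0.40 in the side population, 2.62, 4.80 and -2.34 in heart c-kit cells, 1.36, 2.03 and 2.48 in heart Sca1 cells, -2.98, -2.36 and -5.18 in marrow c-kit cells, 1.31, 0.83 and 1.83 in marrow MSC and 0.03 and 0.51 in cardiomyocytes. Side population replicate 1 stood at the fill value and replicate 2 among the heart and MSC arrays. The difference of the side population from the mean of the others was -2.68 ± 1.45 (limma adjusted p = 0.235). Only marrow c-kit cells were called, at -4.09 ± 1.23 against the mean of the others (limma adjusted p = 0.0332), and that call was lost without any 1 marrow c-kit array (-4.66 to -3.25, 0.0668 to 0.201) and without cardiomyocyte replicate 2 (-4.04, 0.0544). The floor at the 30th percentile of each array ended it as well (-3.18, 0.0567).

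The fibroblast marker list, like Abca8a and Abca9, was higher on all side population, heart Sca1 and cardiomyocyte arrays than on all other arrays. Abca6 read -0.71 and 4.52 in the side population, where the list read 5.45 and 5.64. In MSC the list read 1.92 to 3.18, above its -1.85 to -0.96 in marrow c-kit cells. The MSC mean of Abca9 (1.25) likewise exceeded that of marrow c-kit cells (-4.65). The MSC means of Abca8a (-0.07) and Abca6 (-3.50) did not exceed those of marrow c-kit cells (0.03 and -2.78). Of the 9 measured fibroblast genes, 7 were higher and 1 was lower in the side population than in the mean of the other populations. In heart Sca1 cells 7 were higher. Lum, a collagen-binding proteoglycan, was higher in the side population by 5.49 ± 1.44 (limma adjusted p = 0.02) and Dcn, which encodes decorin, by 4.26 ± 0.72 (0.00169). Col1a1 went the other way, at -3.53 ± 0.93 (0.021), but its side population arrays read -2.13 and 3.53. Only replicate 1 lay below the other groups, whose arrays ran from 2.95 to 5.97. The part of fibroblast content in the levels of the 3 transporters was not tested.

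**Figure D3:**
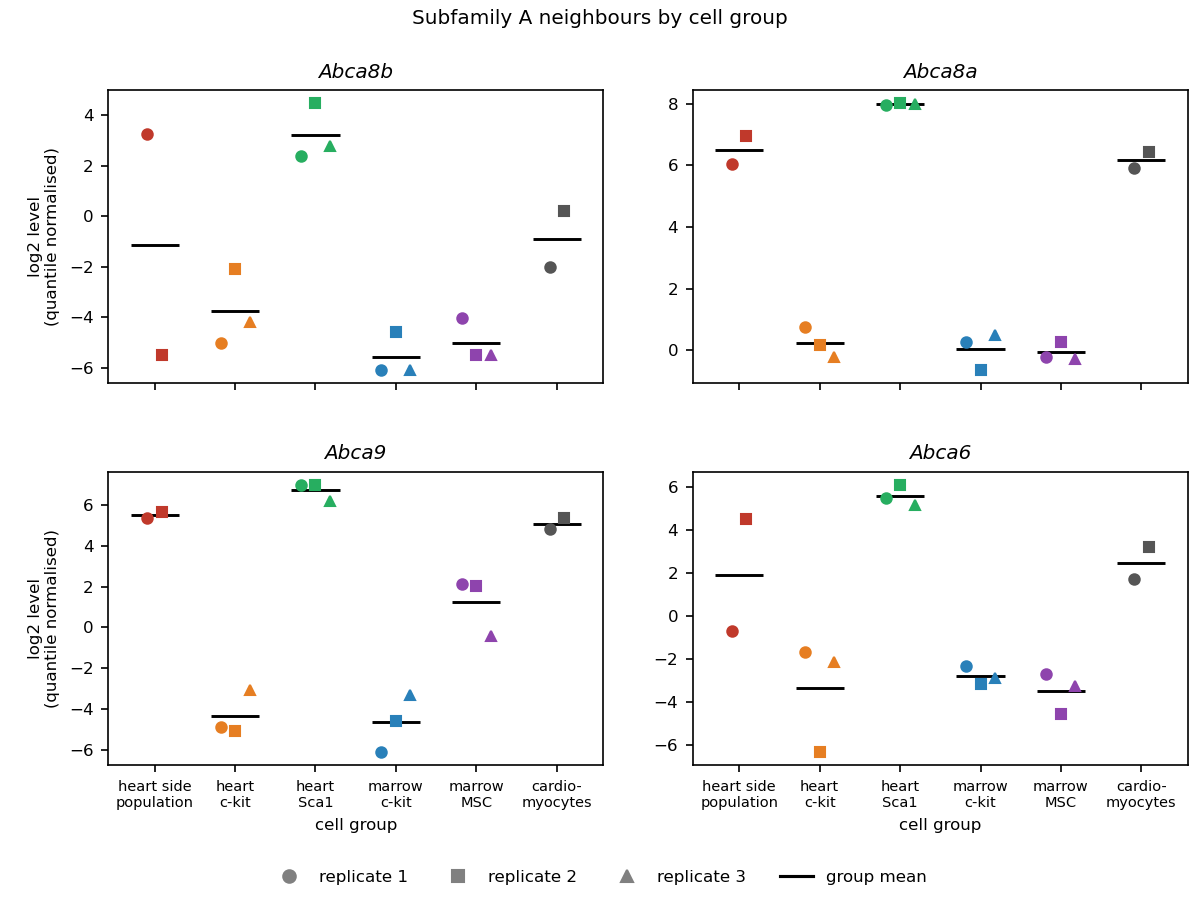
Log2 levels (quantile normalised, y axis) of Abca8b, Abca8a, Abca9 and Abca6, neighbours on chromosome 11, by cell group (x axis); points are arrays, shapes replicate numbers and bars group means. In all 4 panels the heart Sca1 mean is the highest (3.20, 7.98, 6.72 and 5.59), and the 2 side population points lie together for Abca8a and Abca9 but far apart for Abca8b and Abca6.

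Among the sterol exporters, Abcg1 was the transporter with the largest negative difference in the side population. Abcg1 encodes a half-transporter that passes cholesterol to high-density lipoprotein and is known from macrophages. Its levels were -3.18 and -1.79 in the side population, 0.55, 2.64 and 0.53 in heart c-kit cells, -1.60, -0.35 and 1.73 in heart Sca1 cells, 2.58, 2.82 and 3.38 in marrow c-kit cells, 4.62, 5.43 and 5.21 in marrow MSC and 2.04 and 3.62 in cardiomyocytes. Both side population arrays lay below all 14 others, and the 3 MSC arrays lay above all others. The recovered Abcg1 intensities were only 3 and 10 in the side population and at least 25 elsewhere, so the size of its differences is uncertain. The side population minus the mean of the others was -4.89 ± 0.79 (limma adjusted p = 0.0013). It was lower than MSC (-7.57 ± 0.95, 0.000166), marrow c-kit cells (-5.41 ± 0.95, 0.000959), cardiomyocytes (-5.32 ± 1.04, 0.0122) and heart c-kit cells (-3.73 ± 0.95, 0.0203), but not called against heart Sca1 cells (-2.41 ± 0.95, 0.143). Calls were lost against cardiomyocytes without cardiomyocyte replicate 2 (-4.53, 0.0927), and against heart c-kit cells without side population replicate 1 (-3.03, 0.128) or heart c-kit replicate 2 (-3.03, 0.0583). With array weights the difference from the mean of the others had a limma adjusted p of 0.0502. The call against heart c-kit cells was lost as well with array medians aligned (-3.39, adjusted p = 0.0758), array weights (adjusted p = 0.262) and only the groups compared (adjusted p = 0.221), and that against cardiomyocytes with array weights (adjusted p = 0.154) and only the groups compared (adjusted p = 0.225). MSC exceeded the mean of the others by 4.20 ± 0.67 (limma adjusted p = 0.00122). The leukocyte list had its lowest range in the side population and its highest in MSC as well, and its part in the Abcg1 level was not tested. The other Abcg1 probe averaged -5.70 in the side population and -0.62 in MSC, the lowest and the highest of its 6 group means.

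Abca1, which loads cholesterol and phospholipid onto apolipoprotein A-I, was lowest in marrow c-kit cells. There it read -2.32, -1.66 and -6.08, the last at the fill value, against 3.99 and 4.56 in the side population, 1.65, 2.97 and 3.47 in heart c-kit cells, 5.35, 5.45 and 5.58 in heart Sca1 cells, 3.36, 4.26 and 3.29 in marrow MSC and 4.67 and 5.22 in cardiomyocytes. All 3 marrow c-kit arrays lay below all others. Marrow c-kit cells minus the mean of the others came to -7.56 ± 0.73 (limma adjusted p = 5.03e-06), and the side population minus marrow c-kit cells to 7.62 ± 1.03 (0.000126). Both calls held under all alternatives run. The 3 heart Sca1 arrays lay above the rest (heart Sca1 minus the mean of the others 3.02 ± 0.73, 0.0206), a call that was lost without any 1 of them (2.96 to 3.07, 0.0828 to 0.092). It was lost as well with array medians aligned (2.95, adjusted p = 0.0614).

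Abcg8 and Abcg5 together encode a heterodimer that exports sterols from liver and gut cells. The Abcg8 levels were 2.54 and 2.43 in the side population, -0.01, 2.19 and 1.00 in heart c-kit cells, 0.07, -0.21 and -0.22 in heart Sca1 cells, 0.64, 0.41 and 1.01 in marrow c-kit cells, 0.82, -0.47 and 0.64 in marrow MSC and 0.58 and -0.91 in cardiomyocytes. Both side population arrays lay above all others on this scale. Abcg8 was called higher in the side population against the mean of the others (2.13 ± 0.58, limma adjusted p = 0.0251), heart Sca1 cells (2.60 ± 0.70, 0.042) and MSC (2.16 ± 0.70, 0.049). The recovered intensities, however, were 168 and 193 in the side population and 90 to 177 on the 14 other arrays, a range of little more than 2 times, while the side population arrays were 2 of the 3 with the lowest median intensity. The call against the mean of the others was lost without side population replicate 1 (2.07, 0.119), without replicate 2 (2.18, 0.0956) and with the deposited values (1.79, adjusted p = 0.0763) and array weights (adjusted p = 0.226). The call against heart Sca1 cells was lost without either side population array, any heart Sca1 or marrow c-kit array, or MSC replicate 1 or 3 (2.55 to 2.70, limma adjusted p = 0.0541 to 0.111). That against MSC was lost without any array of the side population, heart Sca1, marrow c-kit or MSC groups or heart c-kit replicate 3 (1.76 to 2.40, 0.0517 to 0.158). Both pairwise calls ended in 5 further alternatives, that against heart Sca1 cells with the deposited values (2.29, adjusted p = 0.0995), trend and robust moderation (adjusted p = 0.0635), the replicate block (2.66, adjusted p = 0.0671), array weights (adjusted p = 0.186) and only the groups compared (adjusted p = 0.0711), and that against MSC with the deposited values (1.74, adjusted p = 0.155), trend and robust moderation (adjusted p = 0.0709), the replicate block (2.21, adjusted p = 0.0705), array weights (adjusted p = 0.155) and only the groups compared (adjusted p = 0.0686). Abcg5 differed by 0.11 ± 0.81 between the side population and the others (limma adjusted p = 0.947).

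Of 7 measured sterol regulators and lipid acceptors, 1 was higher in the side population against the mean of the others, and 3 were lower in marrow c-kit cells. Apoe, a lipid acceptor for these exporters, was higher in the side population than in the mean of the others by 1.74 ± 0.45 (limma adjusted p = 0.0182). Its group mean of 8.32 there was close to those in MSC (8.18), heart Sca1 cells (8.04) and cardiomyocytes (7.95). The lower means were those of heart c-kit cells (6.38) and marrow c-kit cells (2.34). In marrow c-kit cells Apoe read 2.26, 2.36 and 2.41, below all other arrays (marrow c-kit minus the others -5.43 ± 0.38, 2.4e-07). Nr1h3, the liver X receptor gene that drives Abca1 and Abcg1 transcription, was lower in marrow c-kit cells (-2.44 ± 0.66, 0.019) and in heart c-kit cells (-2.42 ± 0.66, 0.0339) and higher in MSC (2.53 ± 0.66, 0.0216). Rxra, its heterodimer partner, was lower in marrow c-kit cells (-1.78 ± 0.43, 0.0104).

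Among the organic anion exporters of subfamily C, Abcc4 was lower in the side population. Abcc4 exports cyclic nucleotides and prostaglandins. It read -2.83 and -0.92 in the side population, 3.45, 3.03 and 4.33 in heart c-kit cells, -0.03, 0.94 and 1.59 in heart Sca1 cells, 3.79, 2.97 and 3.19 in marrow c-kit cells, 0.04, -2.08 and -0.17 in marrow MSC and 1.39 and 1.82 in cardiomyocytes. The c-kit groups of heart and marrow were both high, and the side population overlapped only MSC. The recovered Abcc4 intensities were only 4 and 14 in the side population and at least 53 elsewhere, so the size of its differences is uncertain. The side population minus the mean of the others was -3.60 ± 0.67 (limma adjusted p = 0.00299), minus heart c-kit cells -5.48 ± 0.80 (0.000643), minus marrow c-kit cells -5.19 ± 0.80 (0.000353) and minus cardiomyocytes -3.48 ± 0.88 (0.0372). Without side population replicate 1 the first became -2.65 and was not called (0.0606), nor was it with array weights (adjusted p = 0.108). The call against heart c-kit cells ended in the fit of only the groups compared (adjusted p = 0.0848). The call against cardiomyocytes was lost without side population replicate 1 (-2.53, 0.152), either cardiomyocyte array (-3.70 and -3.27, 0.109 and 0.146), heart Sca1 replicate 2 (0.0517) or marrow c-kit replicate 2 or 3 (0.0528 and 0.0514). It was lost as well with array medians aligned (-2.45, adjusted p = 0.128), array weights (adjusted p = 0.307) and only the groups compared (adjusted p = 0.309). Heart c-kit cells exceeded the mean of the others by 2.98 ± 0.57 (limma adjusted p = 0.00461) and marrow c-kit cells by 2.63 ± 0.57 (0.00454), calls lost in heart c-kit cells with array weights (adjusted p = 0.09) and in marrow c-kit cells with array medians aligned (1.92, adjusted p = 0.0893). MSC were lower by -2.23 ± 0.57 (0.0188), which was not called without MSC replicate 2 (-1.56, 0.147) or with array medians aligned (-2.08, adjusted p = 0.0695) and the deposited values (-1.81, adjusted p = 0.0871).

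Abcc3, an exporter of bile salts and glucuronides, stood out in MSC. It read 3.07, 3.32 and 2.38 in MSC, -6.30 and -1.79 in the side population, -3.18, -5.10 and -2.14 in heart c-kit cells, -2.09, -1.36 and -3.71 in heart Sca1 cells, -1.28, -2.05 and -2.89 in marrow c-kit cells and -3.36 and -1.13 in cardiomyocytes. All MSC arrays lay above all others. MSC exceeded the mean of the others by 5.77 ± 0.87 (limma adjusted p = 0.000802), and the side population minus MSC came to -6.97 ± 1.23 (0.0018). Both calls held under every alternative that kept the gene, while leaving out the dimmest 30% of genes removed it.

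**Figure D4:**
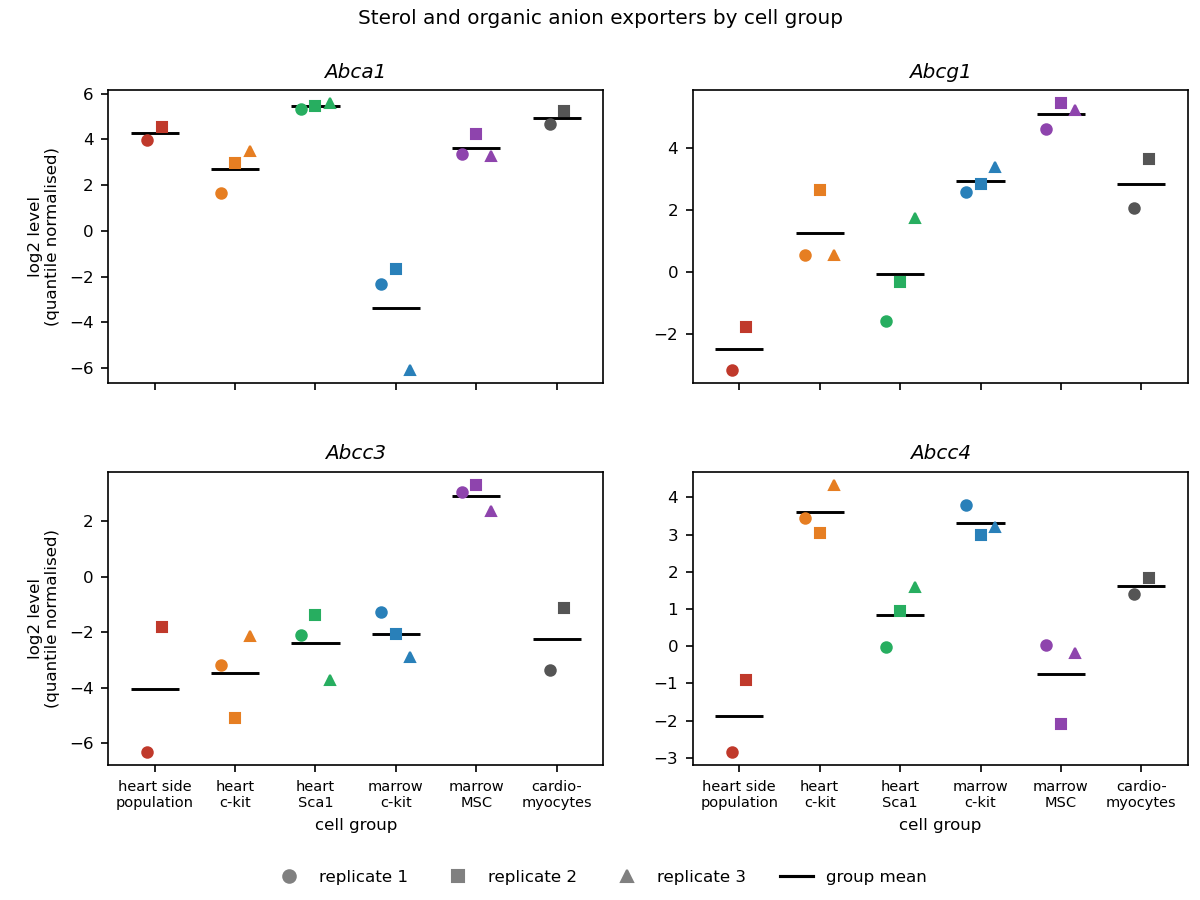
Log2 levels (quantile normalised, y axis) of the sterol exporters Abca1 and Abcg1 and the organic anion exporters Abcc3 and Abcc4 by cell group (x axis); points are arrays, shapes replicate numbers and bars group means. The side population mean is the lowest for Abcg1, Abcc3 and Abcc4 (-2.49, -4.04 and -1.88), and marrow c-kit cells are the lowest for Abca1 (-3.35).

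Marrow c-kit cells had 3 further high members of subfamily A. Abca13, a very large transporter, read 0.56, 0.85 and 0.49 there, against -3.63 and -3.97 in the side population, -6.16, -5.10 and -5.41 in heart c-kit cells, -5.69, -2.82 and -5.65 in heart Sca1 cells, -2.28, -6.08 and -5.50 in marrow MSC and -5.69 and -6.11 in cardiomyocytes. The marrow c-kit arrays lay above all others, and all 3 heart c-kit arrays were at the fill value. The difference of marrow c-kit cells from the mean of the others was 5.55 ± 0.74 (limma adjusted p = 9.81e-05), and the side population minus marrow c-kit cells came to -4.43 ± 1.04 (0.00771). With the floor at the 30th percentile of each array the marrow c-kit difference fell to 2.90 and kept its call (adjusted p = 5.46e-09), and the side population difference came to -2.83 (2.52e-07). That floor sets all lower values of an array to 1 level, which takes away spread between arrays. These limma adjusted p-values therefore do not reflect the spread of Abca13 at low levels. The side population call was lost with array medians aligned (-3.48, adjusted p = 0.0655) and array weights (adjusted p = 0.142).

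Abca7, a phospholipid transporter linked to phagocytosis, read 4.31, 4.32 and 3.95 in marrow c-kit cells, 0.70 and -2.03 in the side population, 1.54, 5.45 and 1.90 in heart c-kit cells, -0.57, 1.26 and 1.79 in heart Sca1 cells, 3.07, 3.57 and 2.14 in marrow MSC and -0.41 and 2.27 in cardiomyocytes. Marrow c-kit arrays overlapped only heart c-kit replicate 2. The side population was lower than marrow c-kit cells (-4.86 ± 1.21, limma adjusted p = 0.0108), a call lost without side population replicate 2 (-3.49, 0.114), and did not pass against the mean of the others (-3.03 ± 1.00, 0.0557). Marrow c-kit cells exceeded the mean of the others by 2.79 ± 0.85 (0.0353), and leaving out any 1 of their arrays (2.73 to 2.92, 0.103 to 0.131), MSC replicate 3 (2.72, 0.0524) or cardiomyocyte replicate 1 (2.53, 0.059) ended that call. The same call ended with array medians aligned (1.86, adjusted p = 0.31) and the deposited values (2.29, adjusted p = 0.126), and the side population call with array medians aligned (-3.80, adjusted p = 0.0697).

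Abca2, a lysosomal lipid transporter best known from myelinating cells, was low in heart c-kit cells. It read -6.16, -5.10 and 0.98 in heart c-kit cells, with replicates 1 and 2 at the fill value, 4.30 and 2.38 in the side population, 2.41, 3.08 and 1.80 in heart Sca1 cells, 4.47, 3.64 and 4.24 in marrow c-kit cells, 0.60, 1.68 and 0.09 in marrow MSC and -0.69 and 1.30 in cardiomyocytes. Heart c-kit cells minus the mean of the others came to -5.62 ± 1.09 (limma adjusted p = 0.00512) and the side population minus heart c-kit cells to 6.77 ± 1.54 (0.0111). The second call was lost without side population replicate 1 (5.81, 0.0786). It was lost as well with array weights (adjusted p = 0.0725) and only the groups compared (adjusted p = 0.256). Against the mean of the others the side population stood at 2.50 ± 1.28 and was not called (0.209). Marrow c-kit cells were higher by 3.43 ± 1.09 (0.0423), which 14 of 24 alternatives ended. Among these were leaving out any 1 marrow c-kit or heart Sca1 array, side population replicate 2, heart c-kit replicate 2, MSC replicate 1 or 3, or cardiomyocyte replicate 1 (3.23 to 3.67, 0.0508 to 0.147). The remaining 3 were array medians aligned (2.46, adjusted p = 0.232), the deposited values (2.89, adjusted p = 0.118) and the replicate block (3.27, adjusted p = 0.0693).

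The mitochondrial members of subfamily B include Abcb10, an inner-membrane transporter needed for haem synthesis in red cell precursors. Abcb10 read 6.16, 5.63 and 4.62 in marrow c-kit cells, 3.22 and 4.11 in the side population, -0.42, -3.65 and 1.89 in heart c-kit cells, 4.19, 3.47 and 3.32 in heart Sca1 cells, 3.39, 3.89 and 3.52 in marrow MSC and 2.60 and 3.97 in cardiomyocytes. The marrow c-kit arrays lay above all others and the heart c-kit arrays below all others. Marrow c-kit cells exceeded the mean of the others by 2.77 ± 0.81 (limma adjusted p = 0.029), and heart c-kit cells minus the others came to -4.66 ± 0.81 (0.00288). The side population was higher than heart c-kit cells by 4.40 ± 1.15 (0.0236), a call lost without side population replicate 1 (4.84, 0.0534) or 2 (3.95, 0.106). Leaving out any 1 marrow c-kit array or cardiomyocyte replicate 1 ended the marrow c-kit call (2.43 to 3.20, 0.0513 to 0.141). The same call ended with array medians aligned (1.75, adjusted p = 0.24), the deposited values (2.18, adjusted p = 0.148) and the replicate block (2.71, adjusted p = 0.0528), and the side population call with array weights (adjusted p = 0.137) and only the groups compared (adjusted p = 0.337). Of 7 measured haem and iron-sulphur genes, 4 were higher in marrow c-kit cells than in the mean of the others: Alas1, the first enzyme of haem synthesis (2.23 ± 0.52, 0.00761), the glutaredoxin Glrx5 (1.80 ± 0.50), the mitochondrial iron importer Slc25a37 (1.83 ± 0.51) and the cysteine desulphurase Nfs1 (1.83 ± 0.59). MSC were also called higher than the mean of the others in 3 of these 7 genes. The MSC means of Alas1 (6.27) and Glrx5 (5.62) exceeded those of marrow c-kit cells (6.09 and 4.63). In the side population 1 was higher, the ferrochelatase gene Fech (1.59 ± 0.51, limma adjusted p = 0.0496), and 1 was lower, Alas1 (-1.90 ± 0.61, 0.0486). Alas1 read 3.99 and 1.30 on the side population arrays. Its means were 3.79 in heart c-kit cells and 3.29 in both heart Sca1 cells and cardiomyocytes, below those of the marrow groups. Abcb8, another mitochondrial member, was not called in any comparison.

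Abcb5, described in melanoma and limbal stem cells, read 0.31 and -0.31 in the side population, -0.95, 1.91 and -1.81 in heart c-kit cells, -2.58, -1.33 and -2.57 in heart Sca1 cells, -1.43, -2.93 and -1.42 in marrow c-kit cells, -4.02, -2.34 and -6.33 in marrow MSC and -0.84 and -2.99 in cardiomyocytes. The side population arrays lay above all arrays except heart c-kit replicate 2. It passed against MSC (4.23 ± 1.21, limma adjusted p = 0.0274) and not against the mean of the others (2.10 ± 1.00, 0.175). The call against MSC was lost without either side population array (3.92 and 4.54, 0.116 and 0.0673), without MSC replicate 1 or 3 (4.34 and 3.18, 0.0608 and 0.0963) and with the mean over probes (2.52, adjusted p = 0.061), the deposited values (3.40, adjusted p = 0.0909), a floor at the 30th percentile of each array (2.27, adjusted p = 0.0858), the replicate block (3.79, adjusted p = 0.052), array weights (adjusted p = 0.162) and only the groups compared (adjusted p = 0.0838). MSC minus the mean of the others came to -2.97 ± 0.85 (0.0337), a call lost without MSC replicate 1 or 3, marrow c-kit replicate 1 or 3, or cardiomyocyte replicate 1 (-3.08 to -1.92, 0.0506 to 0.244). The same call ended with a floor at the 30th percentile of each array (-1.17, adjusted p = 0.229) and the mean over probes (-1.23, adjusted p = 0.211).

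Abcc9 encodes the sulphonylurea receptor of ATP-sensitive potassium channels in heart and vessel muscle, and Kcnj8 the pore it joins. Abcc9 read 1.09, 0.52 and 1.07 in MSC, 2.01 and 3.49 in the side population, 2.73, 1.94 and 1.26 in heart c-kit cells, 2.16, 2.64 and 3.00 in heart Sca1 cells, 2.09, 1.05 and 1.75 in marrow c-kit cells and 4.33 and 2.71 in cardiomyocytes. MSC overlapped only marrow c-kit replicate 2, and MSC minus the mean of the others came to -1.60 ± 0.49 (limma adjusted p = 0.0458), a call that 15 of 24 alternatives ended. Among these were leaving out any 1 MSC, marrow c-kit or heart Sca1 array, side population replicate 2 or cardiomyocyte replicate 1 (-1.70 to -1.42, 0.0505 to 0.185). The others were array medians aligned (-1.46, adjusted p = 0.105), the deposited values (-1.18, adjusted p = 0.169), trend and robust moderation (adjusted p = 0.0534) and the replicate block (-1.60, adjusted p = 0.066). Of the 2 channel partners, Kcnj8 was lower in MSC (-3.28 ± 0.71, 0.0079) and Kcnj11 was not called. In the side population Abcc9 stood at 0.62 ± 0.58 against the others (0.512).

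In subfamily D, Abcd2, a peroxisomal importer of very long-chain fatty acids, was low in the side population and in cardiomyocytes. It read -5.06 and -6.33 in the side population, -4.88, -3.65 and -2.83 in heart c-kit cells, -1.12, -1.61 and -6.33 in heart Sca1 cells, -0.26, -0.07 and -1.93 in marrow c-kit cells, -0.56, -0.74 and -1.37 in marrow MSC and -6.11 and -4.88 in cardiomyocytes. Side population replicate 1 and cardiomyocyte replicate 1 stood at the fill value. Heart Sca1 replicate 3 and side population replicate 2 were no higher. The side population was lower than marrow c-kit cells (-4.94 ± 1.26, limma adjusted p = 0.012) and MSC (-4.81 ± 1.26, 0.0181), and did not pass against the mean of the others (-2.91 ± 1.04, 0.0747). Both calls were lost without side population replicate 2 (-4.31 and -4.17, 0.0809 and 0.0995), and that against MSC also without MSC replicate 1 (-4.64, 0.0536). With a floor at the 30th percentile of each array they shrank to -1.45 and -1.31 and were not called (0.0551 and 0.0848). The call against marrow c-kit cells was also lost with array medians aligned (-3.37, adjusted p = 0.0799) and array weights (adjusted p = 0.121), and that against MSC with array medians aligned (-3.16, adjusted p = 0.1) and array weights (adjusted p = 0.136). Marrow c-kit cells (3.02 ± 0.89, 0.0288) and MSC (2.86 ± 0.89, 0.0473) exceeded the mean of the others. The marrow c-kit call was lost without marrow c-kit replicate 1 or 2 or cardiomyocyte replicate 1 (2.68 to 2.90, 0.051 to 0.149). The MSC call was lost in 14 of 23 alternatives, among them leaving out any 1 MSC, marrow c-kit or cardiomyocyte array, heart c-kit replicate 1 or 2, or side population replicate 2 (2.70 to 3.10, 0.0528 to 0.187). That call also ended with array medians aligned (2.54, adjusted p = 0.0989), the deposited values (2.82, adjusted p = 0.0532) and a floor at the 30th percentile of each array (0.95, adjusted p = 0.0884), and the marrow c-kit call with array medians aligned (2.79, adjusted p = 0.0653). Among 5 measured peroxisome partners 1 was called in the side population, the import receptor gene Pex5 (-2.28 ± 0.68, 0.0364).

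Abce1, the only member of subfamily E, splits ribosomes after termination. It read 5.37, 5.06 and 4.49 in marrow c-kit cells, 1.76 and 3.35 in the side population, 3.79, 5.34 and 4.85 in heart c-kit cells, 2.43, 2.92 and 3.46 in heart Sca1 cells, 3.60, 3.26 and 3.70 in marrow MSC and 1.75 and 2.69 in cardiomyocytes. Both c-kit groups lay high and overlapped each other. Marrow c-kit cells exceeded the mean of the others by 1.79 ± 0.47 (limma adjusted p = 0.0166), and the side population minus marrow c-kit cells came to -2.42 ± 0.67 (0.0196). The marrow c-kit call was lost without marrow c-kit replicate 1 (1.59, 0.0935) or 2 (1.75, 0.0808). With array medians aligned the difference of the side population from marrow c-kit cells shrank to -0.78 (0.649) and that of marrow c-kit cells from the mean of the others to 0.79 (0.676). The side population difference was also lost without side population replicate 1 (-1.62, 0.176) or marrow c-kit replicate 1 or 2 (-2.22 and -2.37, 0.0613 and 0.055). It ended as well with the deposited values (-2.00, adjusted p = 0.205), array weights (adjusted p = 0.0701) and only the groups compared (adjusted p = 0.0887), and the marrow c-kit call with the deposited values (1.22, adjusted p = 0.356). The other Abce1 probe averaged -2.65 in the side population and -0.17 in marrow c-kit cells. Of 6 translation partners 1 was also called in marrow c-kit cells, Etf1, the release factor with which Abce1 works (1.54 ± 0.40, 0.0149).

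**Figure D5:**
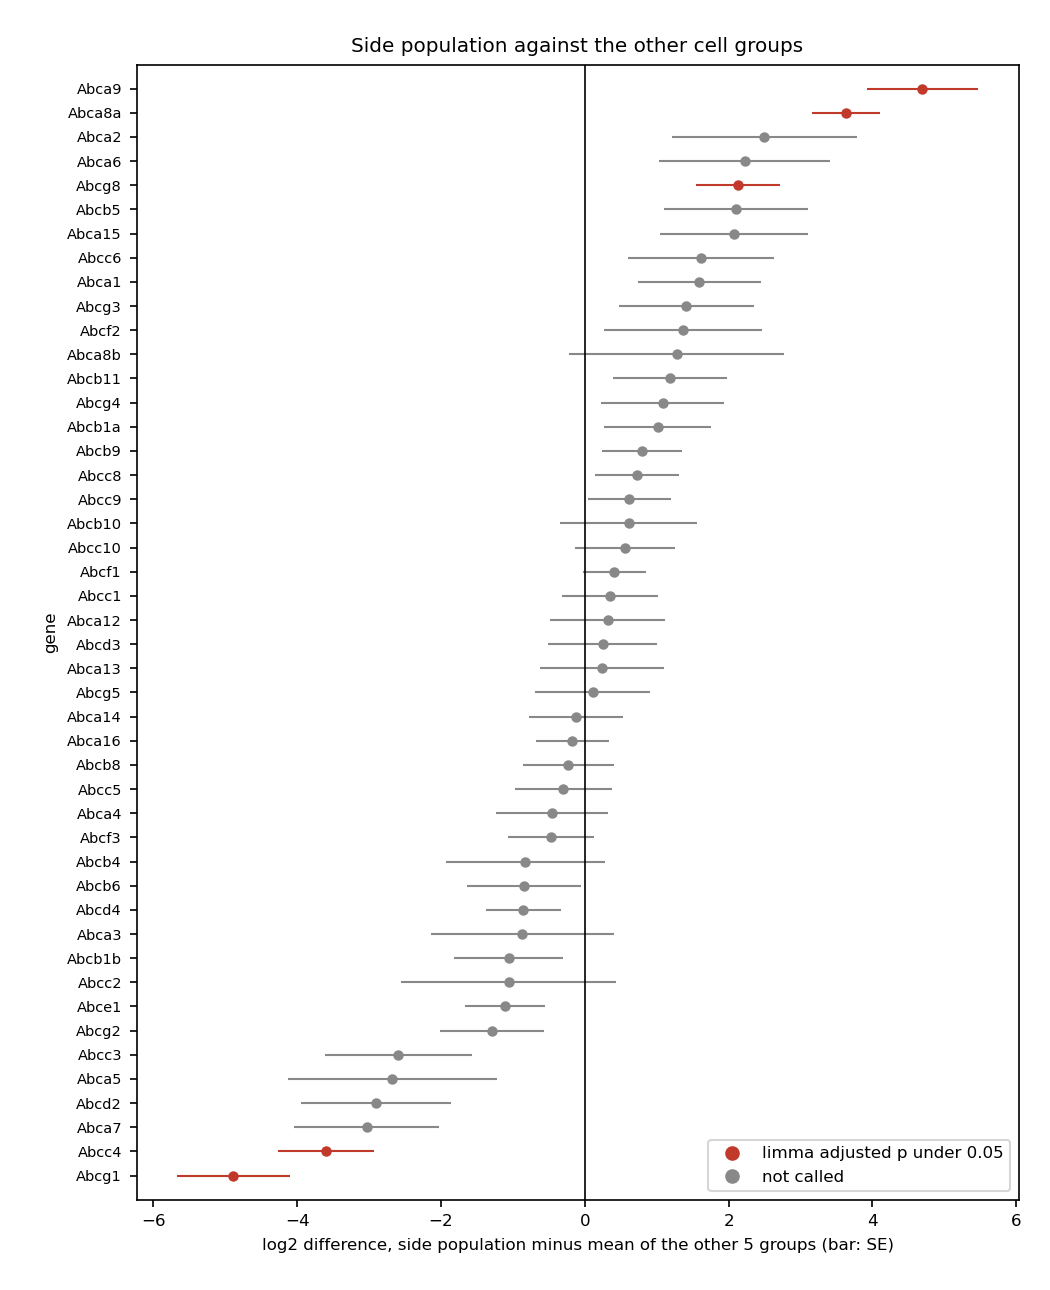
Log2 difference of the side population minus the mean of the other 5 groups (x axis, bars SE) for the 46 transporters, ordered by size, with the 5 called by limma in red. Abca9 lies at 4.70 and Abca8a at 3.63 at the top, Abcg1 at -4.89 and Abcc4 at -3.60 at the bottom, and Abcg8 is the other called gene.

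The 26 transporters called in no comparison were 6 of subfamily A, 6 of B, 5 of C, 2 of D, 3 of F and 4 of G, Abcg2 among them. Their differences of the side population from the mean of the others ran from -1.29 in Abcg2 to 2.08 in Abca15. All 3 members of subfamily F (Abcf1, Abcf2 and Abcf3), which act in translation control, were among them. Abca4, the retinal transporter of photoreceptors, Abcd3, the peroxisomal fatty acid importer, and Abcc5, a cyclic nucleotide exporter, were also among them and were never at the fill value, whereas Abca14 and Abca16 were at it on 9 of 16 arrays each.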

How the data were processed

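The deposited values are log2 Cy5 intensities that the authors centred per array, as read from the values themselves. MSC replicate 3 was the exception, with a mean of 0.30. Per the labels' protocols, total RNA was amplified with WT-Ovation Pico and labelled with Cy5, the only channel used here. For background correction and the fill rule, the sources used here name nothing. Spots under an intensity of 200 gave whole intensities within 0.01. Gene names came from the array's probe annotation (20377 of 26423 probes carried a symbol, and 20339 were named once 38 ambiguous ones were left out), updated through RefSeq.

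Quantile normalisation ran over all probes together, and 6 group means were fitted to 16 arrays with limma 3.58.1 in R 4.3.3 (eBayes, Benjamini-Hochberg over 17710 genes, threshold 0.05) for 12 comparisons. Of several probes of a gene, the one with the highest mean was kept. On simulated data of 17710 genes, side population minus the mean of the others recovered 6%, 53.3% and 84% of changes of 2, 4 and 6 log2 units. Side population minus heart c-kit cells recovered 0%, 34.7% and 65.3% of them. The simulation used normally distributed noise, no normalisation step and changes in a small share of genes. In the data 15.9% of genes were called against the mean of the others, so recovery there can differ. Tables were handled in Python 3.11.15 with pandas 2.3.3. Values on every array are given for the dye exporters, for each transporter called anywhere and for the 5 highest and 5 lowest in side population minus the others. Outside the family, genes come from fixed partner and marker lists, called genes first. The members and lists were chosen with earlier results of these data known. Alternatives were other normalisations, moderation, array weights, a floor, a dim-gene filter, probe means, a replicate block, only the groups compared and each array left out.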

Additional observations from a re-analysis of the deposited data

How the results depend on the processing

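The counts of called transporters moved by less than 1.5 times under most alternatives, and the cause of the larger moves was not tested. The percentage in parentheses after a count is the share of all genes called in the same fit. With the array medians aligned, the side population differed from the mean of the others in 9 transporters (22.8%), from heart Sca1 cells in 2 (9.64%) and from cardiomyocytes in 6 (14.8%), and the fit reported gave 5, 1 and 2. Marrow c-kit cells differed from the others in 7 (12.6%) and cardiomyocytes in 0 (0.0113%), where the fit reported gave 13 and 3. With the deposited values unchanged, marrow c-kit cells differed in 8 (12.4%) and cardiomyocytes in 0 (0.0395%). Array weights, which gave the side population a weight of 0.393 and MSC 2.18, left 1 call of the side population against the mean of the others (3.02%), 3 against heart c-kit cells (2.79%), 0 against heart Sca1 cells (1.91%), 6 against marrow c-kit cells (12.9%), 4 against MSC (8.96%) and 0 against cardiomyocytes (0.723%). They gave 4 calls in heart c-kit cells (2.96%), 14 in MSC (27.7%) and 1 in cardiomyocytes (0.954%) against the others. Fits of only the groups compared left 1 call against heart c-kit cells (0.435%), 0 against heart Sca1 cells (0.994%) and 0 against cardiomyocytes (0%). Leaving out the lowest 30% of genes kept 34 of the 46 transporters and gave 2 calls against heart Sca1 cells (10% of the genes kept) and 4 against cardiomyocytes (8.38%). Raising low values gave 2 against heart Sca1 cells (9.59%), 5 against cardiomyocytes (8.47%) and 7 in cardiomyocytes against the others (5.97%). Against heart Sca1 cells probe means gave 3 calls (6.75%), trend and robust moderation 0 (6.23%) and the replicate block 0 (4.95%). In the fit reported, limma's unadjusted p was under 0.05 for 11 transporters against heart Sca1 cells (23.2% of all genes), 5 against cardiomyocytes (21.2%) and 12 in cardiomyocytes against the others (13.9%). With each array left out in turn, the counts ran from 0 to 4 for the side population against heart Sca1 cells (3.16% to 9.03%), 5 to 11 against MSC (11.4% to 20.5%) and 0 to 3 against cardiomyocytes (1.47% to 7.56%). They ran from 3 to 5 for heart Sca1 cells (3.3% to 10.1%), 5 to 15 for marrow c-kit cells (10.9% to 21%), 4 to 10 for MSC (5.53% to 16.8%) and 0 to 5 for cardiomyocytes (0.0282% to 3.68%) against the others. The side population minus the others ran from -0.093 to 2.12 for Abcb1a, -2.85 to 0.74 for Abcb1b, -0.34 to 1.04 for Abcc1 and -3.20 to 0.62 for Abcg2. By replicate number, deviations of 36 same-numbered pairs of arrays from different groups correlated at -0.183 to 0.399 (median 0.00768). For 70 pairs of other numbers the range was -0.399 to 0.323 (median -0.000784). The same-numbered pair at 0.399 was replicate 1 of heart c-kit cells with replicate 1 of cardiomyocytes. In groups of 2 arrays the deviations mirror each other, so whether some arrays were paired was not settled. With the number as a replicate block the side population against the mean of the others gave 6 calls (13.9%), against marrow c-kit cells 9 (20%), and marrow c-kit cells against the others 9 (16.9%). Signal over background limits the low members, since 14 of the 46 stood at the fill value on some array.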

Other observations

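ABC proteins that carry other symbols were measured beside the family. Cftr, the chloride channel of subfamily C, was higher in marrow c-kit cells than in the mean of the others by 3.53 ± 0.68 (SE, limma adjusted p = 0.00216), and the side population minus marrow c-kit cells came to -3.30 ± 0.97 (0.026). Its levels were low, at -2.45, -0.32 and -1.49 in marrow c-kit cells, and the means of the other groups ran from -5.90 to -4.31. Side population replicate 1, at -5.06, stood at the level of the fill value on that array. Tap2, which encodes one subunit of the peptide transporter of antigen presentation, was lower in heart c-kit cells than in the mean of the others (-2.77 ± 0.72, limma adjusted p = 0.0278). Among 8 measured partners of peptide loading, the peptidase gene Erap1 was higher in the side population than in the mean of the others (1.68 ± 0.48, 0.0296) and the immunoproteasome gene Psmb8 was lower (-2.20 ± 0.55, 0.0155).

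Of 8 measured regulators of drug response genes, Epas1, a hypoxia-inducible factor gene reported to drive Abcg2, was the one called in the side population against the mean of the others (2.01 ± 0.50, limma adjusted p = 0.015), while Abcg2 was not called. Epas1 read 6.01 and 6.07 in the side population, 5.15, 6.73 and 5.13 in heart c-kit cells, 6.18, 6.50 and 6.25 in heart Sca1 cells, -3.41, -2.36 and -2.89 in marrow c-kit cells, 2.91, 3.50 and 3.40 in marrow MSC and 7.81 and 7.73 in cardiomyocytes. Marrow c-kit cells minus the mean of the others came to -8.69 ± 0.42 (1.21e-08), and their 3 arrays lay below all others.

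Among 5 mast cell markers 1 was lower in the side population than in the mean of the others, Hdc, the histidine decarboxylase gene (-4.47 ± 1.18, 0.0209). Its group means were also low in MSC (-4.65), heart c-kit cells (-4.15) and heart Sca1 cells (-2.22), beside -5.70 in the side population. Marrow c-kit cells stood at 3.44 and cardiomyocytes at 1.43. Side population replicate 1, at -5.06, stood at the level of the fill value on that array. Replicate 2, at -6.33, lay below the fill level of its own array (-5.50). Heart c-kit replicate 2 (-5.10) and MSC replicate 1 (-5.50) also stood at the fill level. The size of the side population difference in Hdc is therefore uncertain. The 3 measured erythroid markers had 0 limma calls over 36 tests in 12 comparisons. Of these tests 10 had an unadjusted limma p under 0.05, against 13.9% to 44% of all genes in the single comparisons.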
